A study of Mus musculus with 6 samples.

Results

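The cytosolic ribosomal protein genes were described in CD11b-selected cells of the mouse spinal cord, after electroconvulsive seizures (ECS), which are seizures set off by a brief current, and in controls. Members were the rows whose gene symbol has the form of a large subunit (Rpl) or small subunit (Rps) ribosomal protein, together with the stalk genes Rplp0, Rplp1 and Rplp2 and with Rpsa, Rps27a, Rps27l and Rps4x. Symbols of ps pseudogenes and of the ribosomal S6 kinases were left out. The rule found 88 genes of 47719 rows in the deposited table, of which 52 belong to the large and 36 to the small subunit. No member symbol was on more than 1 row. In the mouse annotation 83 of them are protein-coding genes. The other 5 are pseudogenes with their own gene symbols, namely Rpl6l, Rps3a2, Rps3a3, Rps4l and Rps12l1.

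Both groups were Biozzi ABH mice, an inbred strain, and all were 3 months old. The ECS group had 3 electroconvulsive sessions on consecutive days and was killed 1 day after the last. For the control group a description field gives naive mice, whereas the treatment protocol names sham sessions. Each of the 3 poly(A) RNA libraries per group pooled cells of 5 mice. Pools are therefore the unit of n, and p-values set the difference between the groups against the spread between pools. CD11b is carried by microglia, which are macrophages of nervous tissue, and also by neutrophils and other myeloid cells. The unit is FPKM, fragments per kilobase of transcript after scaling to library size, which allow levels of different genes to be set beside each other per length.

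A ribosome reads messenger RNA on its small subunit and joins amino acids on its large subunit. Each subunit is a ribosomal RNA core dressed with proteins that are needed in near equal numbers. In mammals many messenger RNAs of ribosomal proteins begin with a run of pyrimidines, the 5′ terminal oligopyrimidine tract, which lets mTORC1 signalling set how much of them is translated. FPKM of polyadenylated RNA reports the amount of the messenger RNA and not how much of it is on ribosomes. Some ribosomal proteins have paralogs with a narrow tissue range, and many have processed pseudogenes that are near-identical to the parent transcript.

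Promoter sequences are shown for the 2 members with the highest levels and for the 3 coding members with the smallest p values between the groups, so that the start of the transcript can be read beside the measurements. Each covers 75 bases before and 25 after a transcript start listed by RefSeq on GRCm38.p6, 5′ to 3′ on the strand of the gene, in lower case. Capitals mark the pyrimidine run nearest to the start, defined as a C followed by C or T to a length of at least 7, that begins within 25 bases of the start. The windows are chr10:128626482-128626581 on the minus strand for Rps26, chr3:90213624-90213723 on the minus strand for Rps27, chr7:118116123-118116222 on the minus strand for Rps15a, chr2:180257304-180257403 on the plus strand for Rps21 and chr11:98026635-98026734 on the plus strand for Rpl19.
Rps26: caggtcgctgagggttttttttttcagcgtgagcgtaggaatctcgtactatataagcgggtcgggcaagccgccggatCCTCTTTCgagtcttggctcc
Rps27: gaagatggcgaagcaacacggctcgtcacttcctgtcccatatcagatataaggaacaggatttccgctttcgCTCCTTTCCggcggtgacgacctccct
Rps15a: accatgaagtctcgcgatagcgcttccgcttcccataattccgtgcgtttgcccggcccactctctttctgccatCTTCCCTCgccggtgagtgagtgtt
Rps21: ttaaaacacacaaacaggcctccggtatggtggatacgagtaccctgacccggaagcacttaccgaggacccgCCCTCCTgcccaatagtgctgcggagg
Rpl19: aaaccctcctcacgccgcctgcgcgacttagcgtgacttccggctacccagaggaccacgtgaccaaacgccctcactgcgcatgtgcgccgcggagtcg
The run of Rps15a began on the listed start itself. That of Rps26 began at base 5 of the transcript, and those of Rps27 and Rps21 began at base -2, before it. RefSeq lists 2 starts for Rps21 and for Rpl19, and the first of each is shown. The shown start of Rpl19 had no such run, while at its other listed start a run of 11 pyrimidines began at base -11. Of the 88 members, 63 had a RefSeq promoter, all of them coding genes. A pyrimidine run near any listed start was found in 40 of the 63 (63.5%), against 27.1% of 27025 genes with a promoter and 28.7% of the 8187 of these that were tested between the groups. It was in 24 of 39 large subunit genes and in 16 of 24 small subunit genes. The motif CCGGAAG, searched on both strands from 250 bases before to 50 after the start, was in 26 of 63 members (41.3%), against 9.93% of all genes and 20% of tested genes. The letters TATAAA, on both strands, were in 7 of 63 (11.1%), against 15.7% and 8.89%. The motifs can overlap each other, and a match describes the letters in the window only.

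Ribosomal protein transcripts were abundant in the CD11b-selected cells and spanned a wide range of levels between genes. Of the 88 members, 44 averaged 100 FPKM or more in the 6 libraries, and 33 were among the 500 rows with the highest means. Summed FPKM over all rows was lowest in control 3 (729831) and highest in control 2 (1009665), and rows above 0 numbered from 11427 (ECS 1) to 14900 (ECS 2). Read numbers cannot be had from FPKM. Markers of microglia were abundant in every library, and so were those of neutrophils. Of neuron markers Syt1 and Nefl were listed at 0 in all 6 libraries, as was Trac of T cells. The mean log2(FPKM + 1) of 6 neuron markers ran from 0 in ECS 1 to 0.56 in control 2. That of 8 T and NK cell markers ran from 0.95 in ECS 1 to 1.59 in control 3, so that genes listed at 0 do not show these cells to be absent.

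Among the highest large subunit genes were Rpl10a, Rpl23a, Rplp0 and Rpl10. Rpl10a had 1384, 1863 and 1123 FPKM in control 1 to 3 and 1742, 1622 and 1418 in ECS 1 to 3. The groups overlapped, with means of 1456 ± 375 FPKM for control and 1594 ± 164 for ECS (SD over 3 libraries). Rpl23a, which lies at the exit of the peptide tunnel, had 1036, 1373 and 641 FPKM in control and 959, 1136 and 996 in ECS. Control 2 was its highest and control 3 its lowest library. Rpl10, which joins late in the maturation of the large subunit, had 538, 784 and 499 FPKM in control and 556, 689 and 515 in ECS, with overlapping groups.

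The stalk of the large subunit, which recruits translation factors, is made of the products of Rplp0, Rplp1 and Rplp2. Rplp0 had 734, 752 and 942 FPKM in control and 1023, 748 and 695 in ECS. Rplp1 had 230, 446 and 196 in control and 274, 320 and 245 in ECS. Rplp2 had 147, 250 and 142 in control and 44.6, 180 and 128 in ECS. Rplp0 was thus above both of its partners in every library, and the level of Rplp2 in ECS 1 was the lowest of its 6 values. The means were 809 ± 115 and 822 ± 176 FPKM for Rplp0 and 291 ± 136 and 280 ± 37.6 for Rplp1, control first (SD, n = 3 each). For Rplp2 they were 180 ± 61.0 and 117 ± 68.4, with overlapping groups.

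Among the highest small subunit genes were Rps26, Rps27, Rps10 and Rps2. Rps26, whose product lies where messenger RNA leaves the ribosome, was the highest member, with 2490, 3659 and 2048 FPKM in control and 2767, 2983 and 2729 in ECS. Its ECS libraries lay within the range of the controls. Rps27, a zinc-finger protein, had 1119, 2028 and 1279 FPKM in control and 2060, 1620 and 1223 in ECS. Control 2 and ECS 1 were the high libraries of Rps27, and the groups overlapped. Rps10 had 784, 1020 and 609 in control and 765, 757 and 904 in ECS. Rps2, a protein of the messenger RNA entry channel, had 649, 674 and 471 FPKM in control and 670, 986 and 561 in ECS, so that its groups overlapped too.

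**Figure D1:**
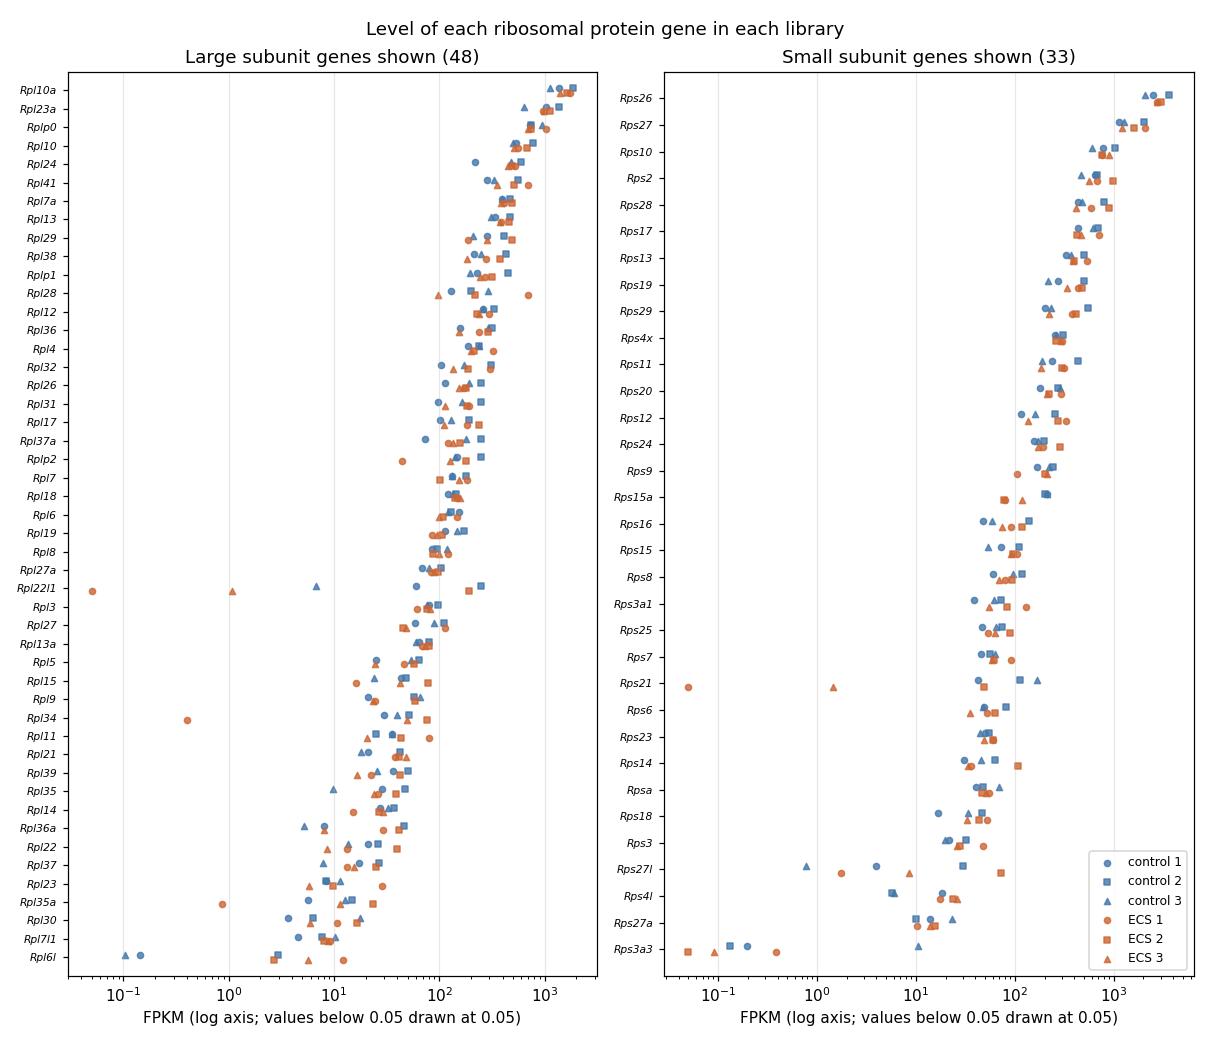
FPKM in each of the 6 libraries on a log axis for 48 large and 33 small subunit genes that were tested, ordered by mean level; values below 0.05 are drawn at 0.05. Levels run from Rps26 at a mean of 2779 FPKM down to Rps3a3 at 1.88, and the groups overlap for all of these genes except Rps15a and Rpl19.

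At the low end, 10 tested members had a mean under 20 FPKM. Rpl30 had 3.66, 6.31 and 17.5 FPKM in control and 10.6, 16.6 and 5.97 in ECS. Rps27a, made as a fusion with ubiquitin, had 13.8, 10.1 and 23.0 in control and 10.2, 15.7 and 13.9 in ECS. Neither gene separated the groups. Coding members that were tested ranged from 8.08 FPKM (Rpl7l1) to 2779 (Rps26), a ratio of 344. The 5 paralogs or pseudogenes Rpl3l, Rpl10l, Rpl39l, Rps3a2 and Rps12l1 were listed at 0 in all 6 libraries, did not enter the test and leave 83 tested members (49 large, 34 small). The pseudogene Rps3a3 was listed at 0 in ECS 2, had 10.5 FPKM in control 3 and was under 0.4 in the other 4 libraries.

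Paralogs are given beside their partners. Rpl3 had 80.5, 96.7 and 77.1 FPKM in control and 61.1, 76.2 and 82.1 in ECS, while its striated muscle paralog Rpl3l was listed at 0. Rpl39 had 36.4, 50.1 and 25.4 in control and 22.7, 42.3 and 16.5 in ECS, and its male germ cell paralog Rpl39l was listed at 0, as was Rpl10l, the testis paralog of Rpl10. Rpl7 had 133, 178 and 133 in control and 182, 101 and 153 in ECS, against 4.55, 7.64 and 10.2 and then 9.25, 8.01 and 8.83 for Rpl7l1. Rpl7 was above Rpl7l1 in every library. For the 3 paralogs listed at 0 no level is given, since a 0 can be a failed estimate. Rps4x, the X-linked gene, had 253, 307 and 261 FPKM in control and 299, 258 and 293 in ECS, the narrowest relative range of all tested members with a highest-to-lowest ratio of 1.21.

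Rpl22, which in mice binds and restrains the messenger RNA of its paralog, had 20.9, 26.1 and 13.7 FPKM in control and 13.2, 39.3 and 8.53 in ECS. Rpl22l1 had 60.3, 252 and 6.80 in control and was listed at 0 in ECS 1. It had 190 FPKM in ECS 2 and 1.08 in ECS 3. It was above Rpl22 in control 1, control 2 and ECS 2, and below it in the other 3 libraries. Rps27l, a paralog of Rps27 that p53 induces in human cells, had 3.95, 30.3 and 0.768 FPKM in control and 1.76, 72.2 and 8.48 in ECS. Both paralogs had their highest control value in control 2 and their highest ECS value in ECS 2.

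Many members were high in the same libraries and low in the same libraries, in both groups. As the log2 difference from each gene's own mean over the 6 libraries, the median large subunit gene was at -0.23, 0.41 and -0.05 in control 1 to 3 and at 0.04, 0.21 and -0.17 in ECS 1 to 3. The median small subunit gene was at -0.33, 0.36 and -0.15 in control and at 0.13, 0.18 and -0.15 in ECS. Control 2 and ECS 2 were the high libraries for both subunits, and control 1 and ECS 3 were low for both, with control 3 close to ECS 3 for the small subunit. The same median over all tested genes stayed between -0.07 and 0.02. Over those that averaged 100 FPKM or more, it ran from -0.14 in control 3 to 0.09 in ECS 3. Of the 83 tested members, 38 had their highest value in control 2 and 30 had their lowest in control 1. Above their own mean were 15, 71 and 32 members in control 1 to 3, and 51, 61 and 20 in ECS 1 to 3.

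**Figure D2:**
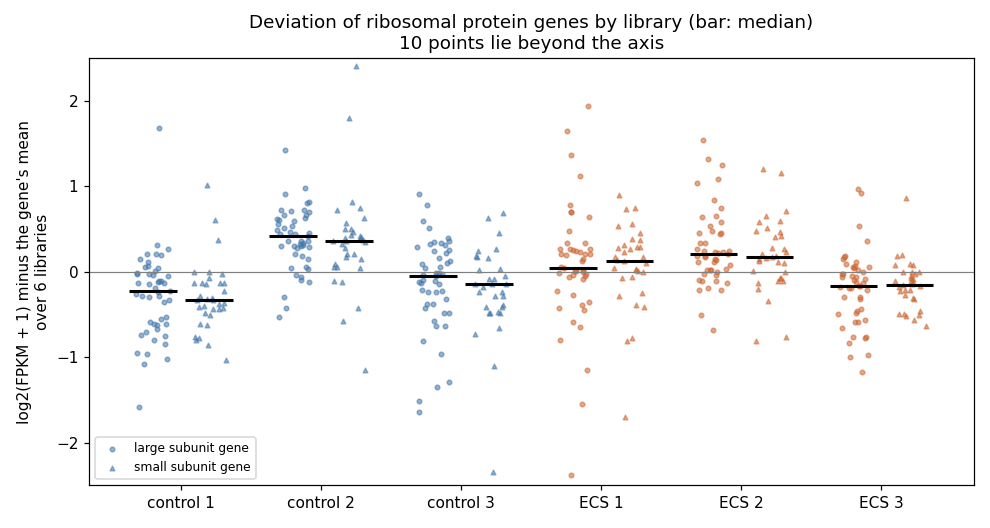
Log2 difference of each tested ribosomal protein gene from its own mean, by library, for the large and the small subunit, with the median of each subunit; the axis ends at 2.5 in both directions and 10 points lie beyond it. Both subunits sit high in control 2 and ECS 2 and low in control 1 and ECS 3.

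Marker lists of other cell types also differed between the libraries, and those of 2 myeloid types also between the groups. The mean log2(FPKM + 1) of 10 neutrophil markers was 9.18, 9.95 and 9.66 in control 1 to 3 and 9.14, 8.92 and 9.02 in ECS, lower in every ECS library. That of 7 markers of border-associated macrophages was 3.85, 3.69 and 3.87 in control and 4.64, 4.995 and 3.94 in ECS, higher in every ECS library. The closest control and ECS libraries were at 9.18 and 9.14 for neutrophil markers and at 3.87 and 3.94 for macrophage markers. At an unadjusted limma p under 0.05 were 1 of 10 neutrophil, 2 of 7 macrophage and 1 of 10 microglia markers, against 3.66% of all tested genes. Other lists followed the libraries more than the groups. The mean log2(FPKM + 1) of 8 endothelial and mural markers was 2.04, 3.69 and 4.04 in control 1 to 3 and 2.66, 3.61 and 2.04 in ECS. That of 8 oligodendrocyte markers was 2.32, 3.33 and 3.48 in control and 3.57, 3.99 and 2.34 in ECS, and that of 7 erythroid markers 3.77, 6.04 and 5.23 and then 5.71, 6.46 and 5.30. Microglia markers, 10 genes, ran the other way, with 8.68, 8.07 and 8.23 in control and 7.95, 7.86 and 8.41 in ECS, highest in control 1 and ECS 3. Control 1 and ECS 3 had the lowest 2 values of the endothelial and oligodendrocyte lists, and control 1 the lowest of the erythroid list. The haemoglobin gene Hbb-bs alone spanned 156 FPKM in control 1 to 73251 in ECS 2. The part of other cell types, neutrophils and border-associated macrophages included, in the ribosomal protein levels and in the differences given below was not tested. In libraries of pooled cells, fewer cells of a type and less RNA per cell cannot be told apart.

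As a share of all FPKM in a library the ribosomal protein genes held 2.24%, 2.79% and 2.62% in control 1 to 3 and 2.62%, 2.73% and 2.19% in ECS 1 to 3. The group values were 2.55 ± 0.28% and 2.51 ± 0.28% (SD, n = 3), a difference well within the spread between pools. As summed FPKM, on which the highest genes weigh most, the balance of the subunits was steadier than their level. Summed FPKM of the small subunit genes over that of the large was 1.07, 1.10 and 1.08 in control and 1.08, 1.07 and 1.11 in ECS, or 1.08 ± 0.016 and 1.09 ± 0.018 (SD, n = 3 each). The median tested gene was less even. For the large subunit it had 96.3, 171 and 130 FPKM in control and 121, 108 and 98.5 in ECS. For the small subunit it had 94.2, 170 and 165 in control and 105, 113 and 104 in ECS. The small subunit median was thus above the large in control 3, ECS 2 and ECS 3, and below it in control 1, control 2 and ECS 1. The group means of these medians were 132.5 ± 37.6 FPKM in control and 109 ± 11.2 in ECS for the large subunit. For the small subunit they were 143 ± 42.3 and 107 ± 4.82 (SD, n = 3 each). They were lower in ECS, although the median of the log2 fold changes of single genes, given below, was above 0 for both subunits.

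Between ECS and control no ribosomal protein gene passed the test. The test was limma on log2(FPKM + 1) over the 11315 genes that averaged 1 FPKM or more, with two-sided p-values adjusted over all of them by Benjamini-Hochberg and a threshold of 0.05. It called 0 of 49 large and 0 of 34 small subunit genes, and 0% of all genes tested. An unadjusted p under 0.05 was found for 414 genes in all (3.66%), 194 of them higher in ECS (1.71%) and 220 lower (1.94%). Members at that level were 4 of 83, with 2 higher (the pseudogenes Rpl6l and Rps4l) and 2 lower (Rps15a and Rps21). The counts are near the background in each direction. Groups that did not overlap were found for 7.49% of all tested genes, 3.7% higher and 3.79% lower, and for 2 members of 83 (2.41%), both lower in ECS: Rps15a and Rpl19.

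The typical difference was small on both subunits. The median log2 fold change, ECS minus control, was 0.03 over large and 0.14 over small subunit genes, against -0.01 over all tested genes and 0.05 over those that averaged 100 FPKM or more. Values were higher in ECS for 28 of 49 large and 22 of 34 small subunit genes (57.1% and 64.7%), against 49.2% of all tested genes and 57.2% of those that averaged 100 FPKM or more. The large subunit median turned negative under all 3 rescalings, with libraries centred on the median ribosomal protein gene, and without control 3, ECS 1 or ECS 2. Both medians depended on single controls: without control 1 they were -0.07 and -0.01, and without control 2 they were 0.22 and 0.31. The median 95% interval of a member reached 0.86 to either side for the large subunit and 0.75 for the small, or about 1.82-fold and 1.69-fold. These intervals are not adjusted for the 11315 genes tested, so that for the typical member a call needed a larger difference. Rps15a, at a log2 fold change of -1.20, was not called. Absolute differences of at least 1 on the log2 scale were found in 7 of 83 members (8.43%), 3 of them pseudogenes, and in 4 of 80 coding members (5.0%), against 14.8% of all tested genes and 5.48% of those that averaged 100 FPKM or more.

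**Figure D3:**
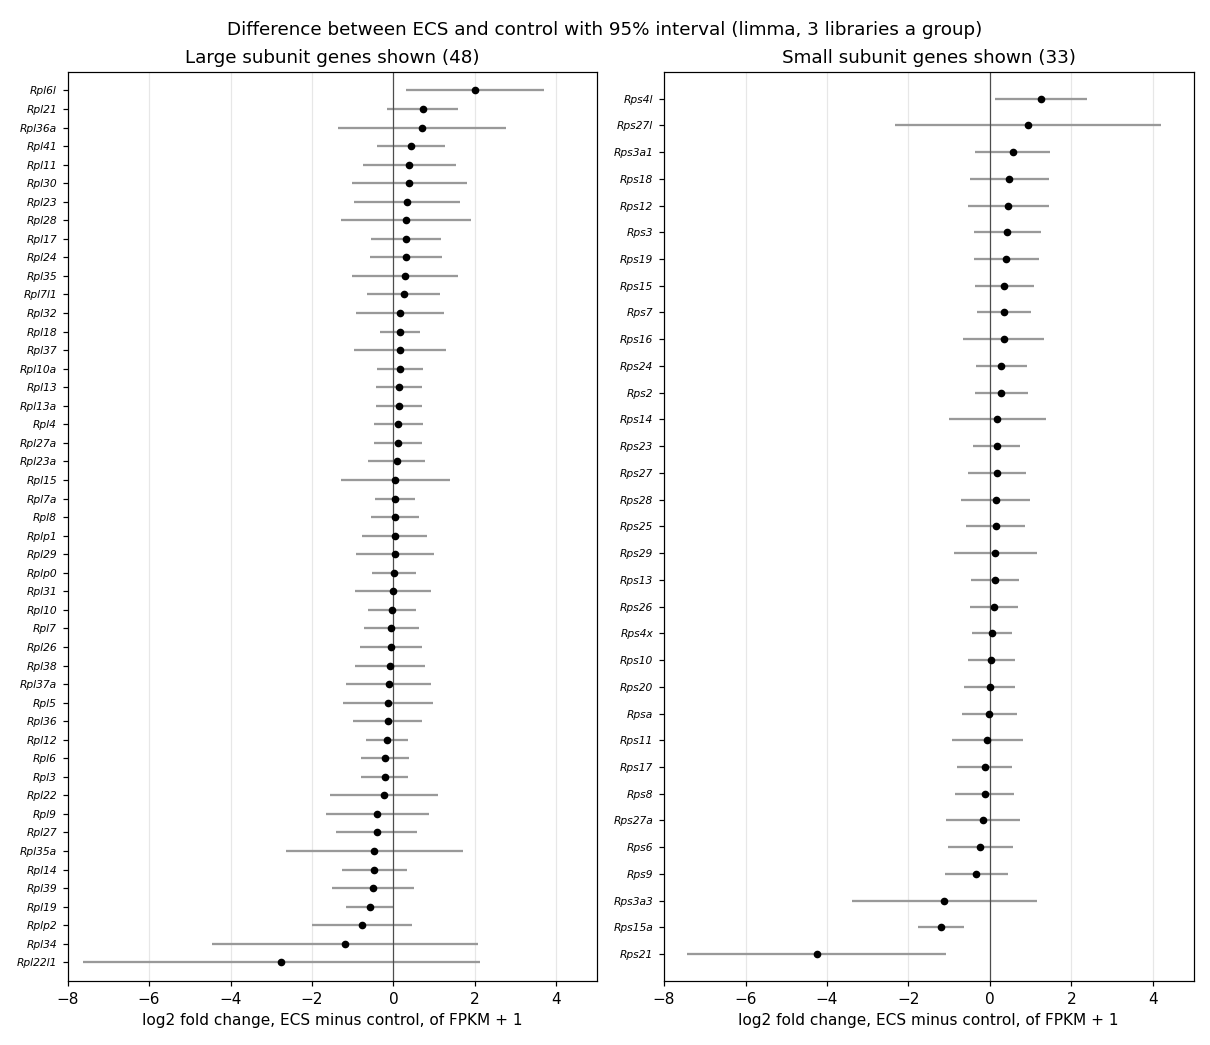
Log2 fold change of FPKM + 1, ECS minus control, with its 95% interval from limma for 48 large and 33 small subunit genes that were tested, 3 libraries per group. Most intervals are centred near 0 and include it, and the widest belong to Rpl22l1, Rps21, Rpl34 and Rps27l.

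Among small subunit genes the smallest p was that of Rps15a, whose product sits in the body of the small subunit. The gene lies at chr7:118104372-118116188 on the minus strand (here and below, GENCODE M21 on GRCm38). It had 209, 204 and 214 FPKM in control and 80.2, 78.2 and 118 in ECS. The 3 controls were within 10 FPKM of each other and all above the highest ECS library. The log2 fold change was -1.20 ± 0.25 (SE; 95% interval -1.78 to -0.63), with an unadjusted limma p of 0.00157 and adjusted p of 1.00. It stayed between -1.39 and -1.10 in all alternatives that were run, with a lowest adjusted p of 0.524. Its 6 near-identical copies of the coding sequence are in the table and together held 2.7% of the summed FPKM of gene and copies.

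Rps21 (chr2:180257377-180258445, plus strand) had 42.8, 114 and 168 FPKM in control and was listed at 0 in ECS 1, at 49.1 in ECS 2 and at 1.45 in ECS 3. The groups overlapped by 1 pair of libraries, control 1 being below ECS 2. The fit gave -4.25 ± 1.36 (SE) on the log2 scale (unadjusted limma p of 0.0157, adjusted p of 1.00), and the size of this value depends on the pseudocount because of the value at 0. Without ECS 2 it was -5.92 with an adjusted p of 0.337, and without ECS 1 it was -3.10. The gene is short, with 252 bases of coding sequence, and overlaps the microRNA gene Mir3091 on the same strand.

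The remaining small subunit genes with the smallest p had higher values in ECS. Rps4l, annotated as a transcribed processed pseudogene inside Tmtc1 on the opposite strand (chr6:148354656-148355598, plus strand), had 18.4, 5.78 and 5.97 FPKM in control and 17.5, 23.5 and 26.3 in ECS. Control 1 lay above ECS 1, and the fit gave 1.25 ± 0.48 (SE) on the log2 scale (unadjusted limma p of 0.0335, adjusted p of 1.00). Whether reads were counted by strand is not given, so its reads and those of Tmtc1 cannot be told apart here. Rps3a1 had 39.1, 73.0 and 62.2 in control and 129, 82.9 and 54.7 in ECS. Rps7 had 45.5, 56.2 and 62.7 in control and 90.9, 61.9 and 59.4 in ECS, and Rps3, also known as a DNA repair nuclease, had 21.6, 32.5 and 19.7 and then 47.7, 27.9 and 26.4. In each of these 3 genes ECS 1 was the highest library and the groups overlapped. Their log2 fold changes were 0.57 ± 0.39, 0.35 ± 0.28 and 0.43 ± 0.35 (SE) with unadjusted limma p of 0.191, 0.254 and 0.260. Without ECS 1 they were 0.26, 0.16 and 0.17.

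Rpl19 was the only tested large subunit gene whose groups did not overlap. Its product reaches across to the small subunit and helps hold the ribosome together. The gene, at chr11:98026710-98030492 on the plus strand, had 114, 171 and 147 FPKM in control and 84.8, 106 and 94.5 in ECS. The lowest control was just above the highest ECS library. The fit gave -0.58 ± 0.25 (SE) on the log2 scale (unadjusted limma p of 0.0509, adjusted p of 1.00), which stayed between -0.74 and -0.45 in the alternatives. Its near-identical copies held 0.4% of the summed FPKM.

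Rpl6l and Rpl21 were the large subunit genes of smallest p with higher values in ECS, and both have near-identical copies. The pseudogene Rpl6l (chr10:111125851-111126721, plus strand) had 0.144, 2.96 and 0.104 FPKM in control and 12.2, 2.70 and 5.72 in ECS. The fit gave 2.01 ± 0.72 (SE) on the log2 scale (unadjusted limma p of 0.0258, adjusted p of 1.00). With its near-identical copies summed into it the sign turned, to -0.14, and copies held 97.1% of that sum. Most of the copies' mean of 133 FPKM was the coding gene Rpl6, which averaged 127 FPKM and had a log2 fold change of -0.20 itself. Rpl21 (chr5:146832890-146837032, plus strand) had 21.1, 42.3 and 18.2 in control and 37.8, 41.8 and 48.1 in ECS, and the fit gave 0.72 ± 0.37 (SE; unadjusted limma p of 0.0909, adjusted p of 1.00). With its copies summed in, the log2 fold change was 0.09. Control 2 overlapped the ECS range in both genes.

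The other large subunit genes with the smallest p had lower values in ECS. Rplp2, given above, had a log2 fold change of -0.78 ± 0.52 (SE, limma p of 0.181), which was -0.19 without ECS 1. Rpl14 had 27.3, 37.2 and 32.5 FPKM in control and 15.2, 26.6 and 29.5 in ECS, and the fit gave -0.47 ± 0.34 (SE, unadjusted limma p of 0.207), which was -0.19 without ECS 1. Rpl22l1 (chr3:28805436-28807424, plus strand) had a fitted value of -2.75 ± 2.08 (SE, limma p of 0.225) that ran from -5.10 without ECS 2 to -1.31 without ECS 1. The adjusted p was 1.00 for all 3, and the groups overlapped in each.

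**Figure D4:**
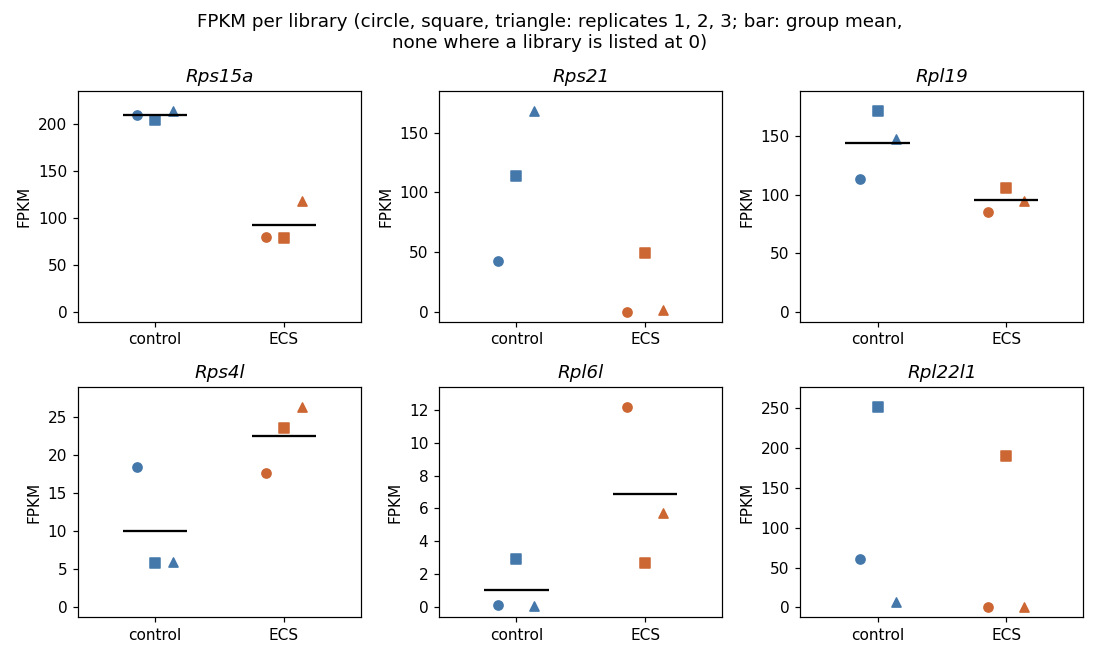
FPKM per library of 6 members with low p or a value at 0, control on the left and ECS on the right of each panel; marks give the replicate and bars the group mean, which is left out for the 2 genes with a library listed at 0. Rps15a and Rpl19 are the 2 panels in which the groups do not overlap.

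A few members had a single library far from the other 5. These were picked after their values were seen. Rpl28 had 130, 202 and 289 FPKM in control and 690, 219 and 96.6 in ECS, so that ECS held both its highest and its lowest value. Rpl34 had 29.9, 51.7 and 39.3 in control and 0.398, 76.4 and 49.5 in ECS. Rpl35a, like Rpl34, had its lowest value in ECS 1, at 0.858 FPKM, and its highest in ECS 2, at 23.3. ECS 1 was also the library in which Rps21 and Rpl22l1 were listed at 0, and it had the fewest rows above 0 (11427). The pseudogene Rps3a3 was at 0 in ECS 2 instead. At the other extreme, 29 members had a highest-to-lowest ratio under 2 over all 6 libraries.

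Libraries of a group differed more in members with shorter coding sequences. The 26 tested coding members with the shortest coding sequences (78 to 399 bases) had a median residual SD of 0.63 on the log2 scale and a median level of 149.7 FPKM. The middle 28 (402 to 579 bases) had 0.47 and 168 FPKM, and the longest 26 (585 to 1260 bases) had 0.29 and 110 FPKM. The shortest class thus had the largest spread, at a median level above that of the longest class. Over all tested genes the median residual SD was 0.63, and over those that averaged 100 FPKM or more it was 0.36.

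Near-identical copies were common, and for most members they held little of the FPKM. Of the 83 coding members, 77 had at least 1 other annotated gene whose sequence matched the coding sequence at 95% identity or more over at least 80% of its length, with a median of 5 copies. The median share of copies in the summed FPKM was 2.6%, and it was under 10% for 69 of the 80 tested coding members. It passed 30% for 5 of them. Rpl21 had 57 copies, 46 of them in the table, that held 69.2% of the sum, Rpl26 had 63.2%, Rps18 63.1%, Rpsa 44.1% and Rpl27 35.5%. The FPKM summed over the copies of Rpl21 was 77.4, 78.8 and 90.0 in control and 97.2, 65.2 and 60.9 in ECS. Levels of these 5 genes are uncertain by that much, since the division of reads among copies is an estimate.

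**Figure D5:**
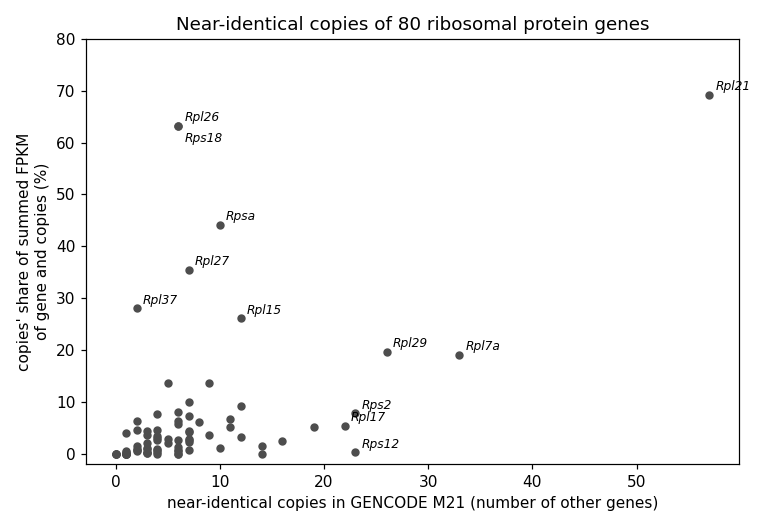
Number of near-identical annotated copies of each tested coding ribosomal protein gene against the percentage of the summed FPKM of gene and copies that the copies hold. Most genes lie under 10%, and Rpl21, with 57 copies and 69.2%, lies farthest out.

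Ribosomal proteins whose symbols fall outside the rule had levels in the same range. Fau, which encodes a small subunit protein fused to a ubiquitin-like domain, had 236, 290 and 201 FPKM in control and 338, 248 and 254 in ECS. Gnb2l1, the scaffold RACK1 of the small subunit, had 332, 382 and 465 in control and 493, 362 and 368 in ECS. The groups overlapped for both genes, as they did for Rpl36al, a paralog of Rpl36a, with 8.25, 13.1 and 17.4 and then 0.254, 38.6 and 7.70 FPKM.

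The genes that build and use the ribosome were read from further lists, and limma called none of their members. Of 34 tested initiation factors 24 had higher values in ECS, 1 at an unadjusted p under 0.05. The median log2 fold change was 0.11, and from 0.03 with libraries rescaled to the same total to 0.19 without ECS 2 in the alternatives. The share with higher values was 49.2% among all tested genes and 57.2% among those that averaged 100 FPKM or more, with medians of -0.01 and 0.05. Of all tested genes 1.71% were higher at an unadjusted p under 0.05. The groups did not overlap for 3 of the 34, all higher in ECS, against 3.7% of all tested genes. The helicase gene Eif4a2 had 19.8, 34.8 and 35.9 FPKM in control and 61.8, 54.6 and 40.2 in ECS, and Eif4g2, a relative of the scaffold eIF4G, had 139, 123 and 177 and then 268, 182 and 194. Neither gene overlapped between the groups, although limma gave both an adjusted p of 1.00. Of 9 elongation factors 6 had higher values and 0 reached an unadjusted p under 0.05. Eef1d, an exchange factor for the elongation factor that carries tRNA, had 72.1, 33.5 and 58.6 in control and 32.0, 37.3 and 37.8 in ECS.

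Of 32 tested ribosome biogenesis genes 17 had higher values in ECS, 1 at an unadjusted p under 0.05, with a median log2 fold change of 0.05 (-0.08 to 0.10 in the alternatives). Among all tested genes 49.2% had higher values and 1.71% were higher at an unadjusted p under 0.05. Gnl3, which encodes the nucleolar GTPase nucleostemin, had 3.12, 3.17 and 5.74 FPKM in control and 13.2, 18.8 and 11.3 in ECS, so that every ECS library was above every control. That held for 1 of the 32 genes, against 3.7% of all tested genes, and limma did not call Gnl3. Of 14 tested genes of mTORC1 signalling to the ribosome 8 had higher values and 0 reached an unadjusted p under 0.05. Rps6kb1, the kinase of ribosomal protein S6, had 14.1, 4.34 and 19.3 in control and 26.4, 30.7 and 14.9 in ECS, with overlapping groups. The gene of its substrate, Rps6, had 48.6, 82.4 and 47.9 in control and 52.9, 62.4 and 35.5 in ECS.

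Mitochondrial ribosomal proteins serve the separate ribosome of that organelle. Of 65 tested genes 43 had lower and 22 higher values in ECS, with 4 and 2 at an unadjusted p under 0.05, against 1.94% and 1.71% of all tested genes. The groups did not overlap for 4 with lower and 1 with higher values, against 3.79% and 3.7% of all tested genes. The median log2 fold change was -0.28, against 0.03 and 0.14 for the cytosolic large and small subunits, and no test of that difference was made. It rested on 1 library, since without ECS 1 the median was 0.05, and with library weights it was 0.01. Mrpl23 had 49.9, 53.1 and 73.1 FPKM in control and was listed at 0 in ECS 1, at 11.7 in ECS 2 and at 4.49 in ECS 3. Mrps18b had 48.9, 110.3 and 75.3 in control and 7.89, 39.9 and 32.4 in ECS, and Mrps35 had 35.8, 6.11 and 4.29 and then 101, 50.7 and 28.4. The groups of Mrpl23 and Mrps18b did not overlap, with lower values in ECS, while those of Mrps35 overlapped through control 1.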

How the data were processed

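RNA of 6 libraries, 3 control and 3 ECS, was selected for poly(A) and prepared with the SENSE kit, per the labels' protocols. The deposited values are FPKM per gene, made by the authors with TopHat2, Cufflinks and Cuffnorm on GRCm38, per the submitters' processing notes. Software versions, gene annotation, strand setting and library scaling were not given in the sources used here. FPKM keeps no read numbers, so depth and counting error are unknown. An exact 0 can be a failed estimate, so genes with one are given by library.

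Ribosomal protein genes and the other lists were chosen with earlier results of these data known. Values were analysed as log2(FPKM + 1), a scale on which changes of low genes are understated. Of 47719 rows, the 11315 averaging 1 FPKM or more were tested with limma 3.58.1 in R 4.3.3 (variance trend, two-sided, Benjamini-Hochberg). Named genes were, per subunit, the 5 highest and 3 lowest members, those listed at 0, stalk genes and paralog pairs, the 6 members with the smallest p, and up to 3 members of each other list; exceptions are stated. Some genes that the rule takes are not reported here by name. Gene positions and copies came from GENCODE M21 on GRCm38, with copies found by blastn 2.17.0, and promoters from RefSeq on GRCm38.p6. Figures were drawn with matplotlib 3.10.9. Alternatives were other pseudocounts, filters, rescalings and variance models, a replicate block, each library left out, and 2 that were chosen after seeing the data (libraries centred on the median ribosomal protein gene, and near-identical copies summed), as was the check of the medians of the other lists.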

Additional observations from a re-analysis of the deposited data

How the results depend on the processing

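The counts of ribosomal protein genes and of all genes called stayed at 0 in the 21 alternatives that were run, while the number of all tested genes at an unadjusted limma p under 0.05 ranged from 260 to 557 and that of members from 1 to 6. With each library left out in turn, the median log2 fold change ran from -0.07 to 0.22 for large subunit genes, from -0.01 to 0.31 for small subunit genes and from -0.02 to 0.01 for all tested genes. The median over all tested genes was -0.085 after rescaling to equal totals, -0.048 with equal upper quartiles and -0.057 with libraries centred on the median ribosomal protein gene, and the large subunit median was -0.05 and -0.01 under the first 2. Rpl6l turned from 2.01 to -0.14 when its copies were summed in (limma p of 0.575, adjusted p of 1.00), since the copies held 97.1% of that sum. Same-numbered libraries were not treated as pairs in the main fit. Over all tested genes the correlations of their deviations from the group means were -0.04, 0.10 and -0.11, which cannot settle whether the pools were paired. With the replicate block limma called 0 genes, 445 genes and 3 members had an unadjusted p under 0.05, and the medians of the large and small subunit genes stayed at 0.03 and 0.14. The medians of ribosome biogenesis and mTORC1 genes changed by more than the spread between pools in 1 and 2 alternatives.

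With 3 pools per group and unknown depth, differences below the intervals given in the report could not be detected, and short genes had the widest spread. The controls are called naive in one label and sham in another.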
